A study of Mus musculus with 4 samples.

Results

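The genes described here lie on mouse chromosome 6 between 45 and 80 Mb of the GRCm38 (mm10) assembly and were measured by RNA-seq in *Terc* knockout and wild-type (WT) embryonic stem cells (ESCs). A member was a gene of chromosome 6 whose start lay from position 45000000 to under 80000000 and whose mean raw count was at least 10 per library, with *Ezh2*, *Cbx3*, *Stk31* and all symbols starting with *Nduf* left out. The interval itself was chosen from the fold changes between G3 *Terc*-/- and WT ESCs in these same libraries, in which most of its genes were lower, so the fold changes of the members, and their calls in the fit over all genes, are given as a description and are no test of the interval. By this rule 122 of the 24116 genes in the count table were members. Of the 248 genes that the interval holds after the named genes were left out, 126 had fewer counts than the minimum, and 71 of these had no count in any library. The members comprised 111 protein-coding genes, 7 long noncoding RNAs, 2 microRNA genes and 2 transcribed pseudogenes.

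The study asked how loss of *Terc*, the RNA template of telomerase, changes gene and retrotransposon expression in ESCs as telomeres shorten. Both lines had the C57BL/6 background, namely the WT line N12, labelled as G3 WT, and the G3 *Terc*-/- line F35, taken from blastocysts of intercrossed *Terc*-/- mice. Both were grown on feeder cells with serum and leukemia inhibitory factor, and poly(A) RNA was sequenced in 2 libraries per line. With 1 line per genotype, a difference between genotypes cannot be told apart from a difference between these lines. The WT libraries held 22057607 and 22520017 gene counts, and those of G3 *Terc*-/- ESCs 21898081 and 18047995. *Terc* (gene identifier 21748, chromosome 3 from 96414437 to 96414833) was counted 7 and 2 times in WT and never in G3 *Terc*-/- ESCs, and 0 counts in a library leave room for at most 3. The knockout libraries thus had no *Terc* read, and the WT counts were low as well. *Terc* RNA carries no poly(A) tail, and these libraries select for one.

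Genes that neighbour each other on a chromosome need share no function, and the interval holds genes of many kinds. It includes the *Hoxa* cluster, whose homeobox genes set position along the body axis and are mostly silent in ESCs, and many genes for KRAB zinc finger and related DNA-binding proteins. Other members code for housekeeping proteins that dividing cells make in quantity, such as splicing factors, mitochondrial proteins and subunits of ubiquitin ligases.

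Together the members took 0.859% and 0.876% of all gene counts of WT, against 0.465% and 0.487% of those of G3 *Terc*-/- ESCs. Values below are CPM, that is counts scaled by library size and TMM factor, and log2 fold changes are G3 *Terc*-/- over WT with the standard error (SE) of the fit. On this scale the members summed to 8681 and 8899.7 CPM in WT and to 4595 and 4816 CPM in G3 *Terc*-/- ESCs. *Hnrnpa2b1* and *Serbp1*, which code for RNA-binding proteins, had the most counts, and the other members summed to 5826 and 5964 CPM in WT and to 3103 and 3200 CPM in G3 *Terc*-/- ESCs. Both G3 *Terc*-/- libraries were thus low with and without that pair, and the genotypes did not overlap. In bulk RNA, fewer cells of a type and less RNA per cell cannot be told apart, nor can fewer DNA copies of the genes. The study reports, from exome sequencing, that part of the members' chromosome was deleted in *Terc*-/- ESCs of the generation used here. DNA copy number was not measured in these libraries. Whether that deletion covers the interval, and whether it lowers the counts of the members, was not tested.

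Every member passed the filter on low counts. A gene was called where its adjusted p in the edgeR fit over all genes was under 0.05. By that rule 98 of the 122 members were called lower in G3 *Terc*-/- ESCs, where 21.8% of the 14896 genes tested were, and 1 member was called higher, where 21.7% of all genes were. With a fold change over 2 and an unadjusted p under 0.05, which are the cutoffs the study used, 49 members were lower and 0 were higher, beside 3.13% and 4.73% of all genes. In 107 members both G3 *Terc*-/- libraries lay below both WT libraries (34.9% of all genes), in 3 both lay above (35.5% of all genes), and in 12 the genotypes overlapped. These shares follow from how the interval was chosen. Of the members named below, *Fkbp14*, *Gimap9* and *Chn2* were not called without WT replicate 2 or without G3 *Terc*-/- replicate 1, and *Particl* was not without WT replicate 2, and all 4 were not called with DESeq2. *Pyurf* was not called without WT replicate 1, *Mir8112* was not without G3 *Terc*-/- replicate 1, and neither was with DESeq2. *Rarres2* was not called with DESeq2, without WT replicate 1 or without G3 *Terc*-/- replicate 2. The changes in the call of *Retsat* are given with its values. Of the members listed in the groups below, *Ppm1k*, *Thnsl2*, *Il12rb2*, *Zfp398* and *Zfp467* also were not called with DESeq2 and in at least 1 fit that left out a library.

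The members' log2 fold changes had a median of -0.89 and quartiles of -1.13 and -0.61, beside a median of 0.01 and quartiles of -0.21 and 0.25 over all genes tested. Set as a level relative to WT, the median member stood at 53.9%. Among the 92 members with a mean of at least 50 counts, 12 stood under 40% of WT, 54 at 40% to under 60%, 19 at 60% to under 80%, 6 at 80% to under 100% and 1 above WT. Fewer members were called at lower depth, where the median fold change was also smaller in size. What set the number called was not tested. The 43 members with a mean of at least 500 counts were all called lower, with a median log2 fold change of -0.96. Of the 49 with 50 to under 500 counts 43 were called lower (median -0.89), and of the 30 with 10 to under 50 counts 12 were (median -0.63).

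The replicates of a genotype were compared gene by gene. Over the 92 members with at least 50 counts, the log2 difference between the WT libraries had a median of 0.02 and an SD of 0.137, and that between the G3 *Terc*-/- libraries a median of 0.05 and an SD of 0.192. Over all 122 members the SDs were 0.241 and 0.366, with differences from -1.16 to 1.72 between the G3 *Terc*-/- libraries. Each G3 *Terc*-/- library set against each WT library gave a median log2 difference of the 122 members from -0.89 to -0.84.

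**Figure D1:**
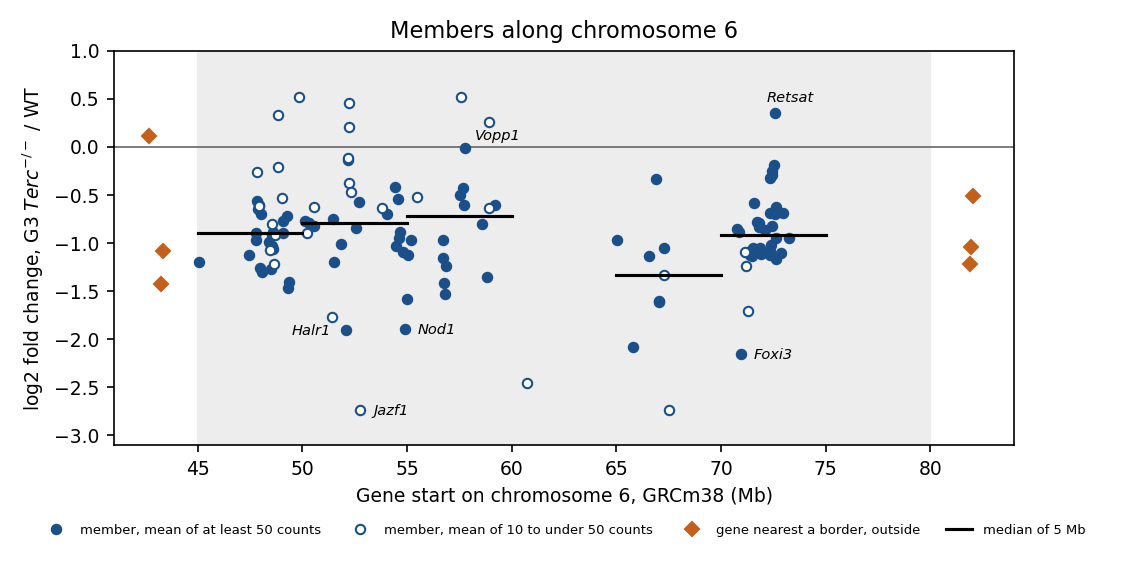
Log2 fold change (G3 *Terc*-/- over WT, vertical axis) of each member by its start on chromosome 6 (horizontal axis, Mb), where filled points have a mean of at least 50 counts, open points fewer, black lines are medians over 5 Mb with more than 1 member, diamonds are the nearest genes outside the interval and the shaded area spans 45 to 80 Mb. Of the 122 members 115 lie below 0, and *Retsat* is the highest of the filled points.

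Along the interval the members were unevenly spread, with 31 from 45 to under 50 Mb, 29 from 50 to under 55 Mb, 18 from 55 to under 60 Mb, 1 from 60 to under 65 Mb, 9 from 65 to under 70 Mb, 34 from 70 to under 75 Mb and 0 beyond. The median log2 fold change was -0.90 from 45 to under 50 Mb, -0.79 from 50 to under 55 Mb, -0.72 from 55 to under 60 Mb, -1.33 from 65 to under 70 Mb and -0.92 from 70 to under 75 Mb. Ordered by start, 39 neighbouring members in a row, from *Fam13a* to *Elmod3*, had a log2 fold change below 0.

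The borders of the interval were drawn at round positions, and lower genes lay on either side of them. The first members inside were *Cntnap2* (start 45060061), *Cul1* and *Pdia4*, with log2 fold changes of -1.20, -1.13 and -0.96. Of the nearest genes before 45 Mb, *Arhgef5*, a guanine nucleotide exchange factor, had 241 and 219 counts in WT against 93 and 64 in G3 *Terc*-/- ESCs. *Tcaf1* (start 42667999), a regulator of TRP channels, had 176 and 152 counts in WT against 180 and 147 in G3 *Terc*-/- ESCs, so that the libraries overlapped there and were apart at *Arhgef5*. Over the 98 genes tested from 25 to under 45 Mb the median log2 fold change was -0.04, with 29 called lower and 24 higher. The 53 genes tested from 0 to under 25 Mb had a median of -0.89, like the members, with 39 called lower and 0 higher, so lower genes were not confined to the interval.

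At the far border the last members were *Kcmf1*, a ubiquitin ligase gene, *Tmsb10*, which codes for an actin-binding thymosin, and *Suclg1* (start 73248505), at -1.11, -0.68 and -0.95 on the log2 scale. The next gene with at least 10 counts started at 81910562. This was *Gcfc2*, with 555 and 548 counts in WT against 251 and 186 in G3 *Terc*-/- ESCs. Beside it, *Mrpl19*, a gene of the mitochondrial ribosome, had 1230 and 1293 counts in WT against 605 and 521 in G3 *Terc*-/- ESCs, and *Eva1a* had 46 and 49 against 30 and 31 counts. All 3 were lower in both G3 *Terc*-/- libraries than in both WT libraries, although they lie outside the interval. Farther on most genes were higher, and of the 132 tested from 80 to under 95 Mb 87 were called higher and 6 lower (median 0.50 on the log2 scale).

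The count minimum also cut through genes of like depth. Just above it, *Nap1l5* (mean 10 counts), an imprinted gene inside an intron of *Herc3*, had 11 and 8 counts in WT against 13 and 8 in G3 *Terc*-/- ESCs. The noncoding RNA gene *Mira* of the *Hoxa* cluster had 13 and 6 against 13 and 11 counts. In both genes the genotypes overlapped. Just under the minimum, *Ndnf* had a mean of 9.75 counts (12 and 17 in WT, 5 and 5 in G3 *Terc*-/- libraries), *Hoxa3* a mean of 9 and *Reg2* a mean of 8.75.

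Between genes, levels were compared per kilobase of annotated exon (RPKM) in the 112 members with an exon length. The median WT level was 3.23 RPKM over members and 5.08 RPKM over the 13920 genes with a length and at least 10 counts, and the members ranged from 0.0845 to 214 RPKM. The highest was *Hnrnpa2b1*, at 209 and 218 RPKM in WT and 122 and 131 in G3 *Terc*-/- ESCs. *Gars* stood at 178 and 186 RPKM in WT and 81.8 and 85.4 in G3 *Terc*-/- ESCs, and *Tmsb10* at 192 and 167 against 113.5 and 110.2 RPKM. *Mat2a* followed at 84.02 and 91.56 against 69.3 and 74.4 RPKM, and *Serbp1* at 73.5 and 74.4 against 34.1 and 37.3 RPKM. Exon length was the union of exons over all annotated transcripts, 20117 bp for *Serbp1* and 6584 bp for *Hnrnpa2b1*. The order of genes by RPKM therefore depends on that annotation. In all 5 genes the G3 *Terc*-/- libraries were the low ones. In WT the libraries of *Gars* and *Tmsb10* overlapped each other, whereas in G3 *Terc*-/- ESCs *Tmsb10* stood above *Gars* in both.

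The groups below are chosen lists, and other members may have like roles. All 6 members listed as RNA-binding or splicing genes were called lower, with a median log2 fold change of -0.93. *Hnrnpa2b1*, a nuclear ribonucleoprotein that binds pre-mRNA, stood at 1375 and 1438 CPM in WT and at 806 and 865 CPM in G3 *Terc*-/- ESCs (log2 fold change -0.75, SE 0.048). *Serbp1*, whose product binds mRNA and ribosomes, stood at 1479 and 1497 CPM in WT and at 686 and 751 CPM in G3 *Terc*-/- ESCs (-1.05, SE 0.049). In both genes the replicates lay close together and the genotypes far apart, with *Serbp1* the lower relative to WT. *Tra2a*, an activator of splicing, had 214 and 223 against 125.5 and 140.2 CPM (-0.72), and *Usp39*, a factor of the spliceosome's tri-snRNP, had 116.5 and 117.0 against 57.1 and 53.1 CPM (-1.08). The other 2, *Igf2bp3* and *Lsm5*, lay between these on the log2 scale, at -0.90 and -0.96.

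Of the 7 ubiquitin ligase genes listed 6 were called lower, each by more than 1 on the log2 scale. The list leaves out the ligase genes *Kcmf1* and *Rnf181*, at -1.11 and -0.68. *Cul1*, the scaffold of SCF ubiquitin ligases, had 172 and 181 CPM in WT and 77.4 and 84.6 CPM in G3 *Terc*-/- ESCs (log2 fold change -1.13, SE 0.058). *Rmnd5a*, a RING subunit of the CTLH ligase, had 155 and 153 against 67.4 and 73.8 CPM (-1.13). The G3 *Terc*-/- libraries of both were the low ones, and both genes stood at 45.9% of WT. *Kbtbd2*, a substrate adaptor of cullin 3 ligases, had 83.9 and 87.0 against 33.0 and 31.1 CPM (-1.41), and *Znrf2*, a membrane-bound RING ligase, 64.5 and 70.9 against 28.5 and 35.4 CPM (-1.09). *Herc3* and *Rnf103* stood at -1.35 and -1.13. *Herc6*, an interferon-induced HERC ligase, was the exception, with 17 and 18 counts in WT against 24 and 22 in G3 *Terc*-/- ESCs, so that both knockout libraries were high, at a depth where the gene was not called.

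Partner genes on other chromosomes, which had no part in choosing the interval, were tested in edgeR, by its quasi-likelihood test with Benjamini-Hochberg adjustment over all genes. Their lists were drawn up with earlier results of these data known. Over all 10 partner lists 179 genes were tested, of which 55 were lower and 37 higher, beside 21.8% and 21.7% of all genes tested, and their median log2 fold change was -0.04. The count of lower ones was 31 when WT replicate 2 was left out. Where a count of 1 list moved by over 1.5 times, its range over all fits is given in brackets. Of the 21 cullins and SCF partners of *Cul1*, 8 were lower (5 to 8) and 6 higher, none by a factor of 2. *Cul4b*, a cullin gene of the X chromosome, had 459 and 478 CPM in WT and 324 and 377 CPM in G3 *Terc*-/- ESCs (log2 fold change -0.42, adjusted p = 1.85e-08 by edgeR). Its paralogue *Cul4a* had 74.3 and 77.0 against 54.6 and 52.3 CPM (-0.50, edgeR adjusted p = 3.04e-08). *Fbxw7*, an F-box protein that binds substrates of SCF, went the other way, with 52.4 and 54.1 against 71.2 and 73.5 CPM (0.44, edgeR adjusted p = 4.54e-07).

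All 7 members listed as mitochondrial were called lower, with log2 fold changes from -1.05 to -0.50 (median -0.83). The one at -0.50, *Ppm1k*, a phosphatase, was not called with DESeq2, without WT replicate 2 or without G3 *Terc*-/- replicate 1. The list leaves out *Malsu1*, of the mitochondrial ribosome, at -0.77. *Immt*, the core of the complex that shapes cristae, had 282 and 286 CPM in WT and 158 and 161 CPM in G3 *Terc*-/- ESCs (log2 fold change -0.83, SE 0.051). *Ptcd3*, a protein of the mitochondrial ribosome, had 161 and 171 against 79.8 and 81.0 CPM (-1.05). In both genes the replicates differed by a few percent and the genotypes did not overlap. *Cycs*, which codes for cytochrome c, had 107 and 105.5 against 58.3 and 61.7 CPM (-0.82), though reads from its processed pseudogenes may be counted with it. *Suclg1*, a subunit of succinyl-CoA ligase in the citric acid cycle, had 85.8 and 96.7 against 46.2 and 48.3 CPM (-0.95). Among the 12 mitochondrial partners on other chromosomes 2 were lower (1 to 2) and 3 higher (1 to 3) by edgeR, and 1 and 1 by DESeq2. *Apaf1*, which cytochrome c binds to activate caspases, had 61.0 and 63.7 against 90.9 and 92.4 CPM (0.55, edgeR adjusted p = 7.14e-10), and *Casp9*, the caspase that *Apaf1* recruits, had 23.7 and 27.1 against 17.4 and 20.6 CPM (-0.43, edgeR adjusted p = 0.000288). *Apool*, a subunit of the cristae complex, had 15.1 and 15.7 against 17.7 and 21.2 CPM (0.33, edgeR adjusted p = 0.00916), a call that was lost without WT replicate 1 (edgeR adjusted p = 0.0747) or G3 *Terc*-/- replicate 2 (edgeR adjusted p = 0.174) and in DESeq2 (adjusted p = 0.0926). The testis form of cytochrome c, *Cyct*, had 52.0 and 49.9 against 19.6 and 19.5 CPM (-1.39, edgeR adjusted p = 1.16e-18), so that both cytochrome c genes were lower, on different chromosomes.

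The 4 members listed for the endoplasmic reticulum and stress were all called lower, a list that leaves out other genes of that organelle, such as *Retsat*, which was called higher. *Eif2ak3* codes for PERK, the kinase that slows translation when unfolded proteins build up in that organelle. It had 26.2 and 28.9 CPM in WT and 14.9 and 14.9 CPM in G3 *Terc*-/- ESCs (log2 fold change -0.89, SE 0.093). *Pdia4*, a protein disulfide isomerase, had 175.5 and 172 against 87.9 and 90.3 CPM (-0.96). *Fkbp9*, a prolyl isomerase of the same compartment, had 193 and 182 against 69.4 and 60.5 CPM (-1.53), the deepest of the group. *Fkbp14*, a related isomerase, had 5.31 and 6.59 against 3.97 and 4.22 CPM (-0.54), with the G3 *Terc*-/- libraries low but near to WT. Of the 23 genes tested of the stress response around *Eif2ak3*, 11 were lower, 3 higher and 9 not called by edgeR. The higher ones were *Sesn2*, *Dnajb9* and *Pdia3*, at 0.48, 0.46 and 0.24 on the log2 scale. The genes with the smallest p were all lower. *Atf4*, the factor translated when PERK is active, had 474 and 461.5 against 316 and 322 CPM (-0.55, edgeR adjusted p = 8.65e-13). *Xbp1*, which acts on the IRE1 branch, had 54.5 and 55.1 against 33.5 and 35.7 CPM (-0.67, edgeR adjusted p = 2.68e-10), and *Trib3*, a target of *Atf4*, had 49.5 and 44.97 against 24.0 and 22.4 CPM (-1.02, edgeR adjusted p = 2.36e-14).

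The 7 members listed as regulators of transcription or chromatin were all called lower, between -2.74 and -0.59 on the log2 scale. *Kdm3a*, a demethylase of histone H3 lysine 9, had 170.5 and 173.8 CPM in WT and 109.6 and 119.9 CPM in G3 *Terc*-/- ESCs (log2 fold change -0.59, SE 0.055). *Smarcad1*, a chromatin remodeller, had 167 and 173 against 81.4 and 93.4 CPM (-0.96). *Tcf7l1*, a repressor of pluripotency genes downstream of Wnt, had 83.9 and 85.0 against 45.8 and 41.8 CPM (-0.94), and its value may include reads of the noncoding gene *Gm15401*, which overlaps it. None of these libraries overlapped between genotypes. *Jazf1*, a zinc finger cofactor, was the lowest but rested on 20 and 25 counts in WT against 5 and 1 in G3 *Terc*-/- ESCs. Of 13 TCF partners and targets 3 were lower (1 to 3) and 7 higher by edgeR. *Tbx3*, a transcription factor of naive pluripotency, had 116 and 121 against 394 and 436 CPM (1.81, edgeR adjusted p = 1.13e-27). *Nr5a2* had 39.5 and 41.5 against 86.9 and 87.0 CPM (1.10, edgeR adjusted p = 1.1e-17), and *Tfcp2l1* had 367 and 378 against 634 and 660 CPM (0.80, edgeR adjusted p = 9.5e-18), both also factors of the pluripotency network. *Esrrb* and *Klf2* belong to this list and to the ESC markers below.

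**Figure D2:**
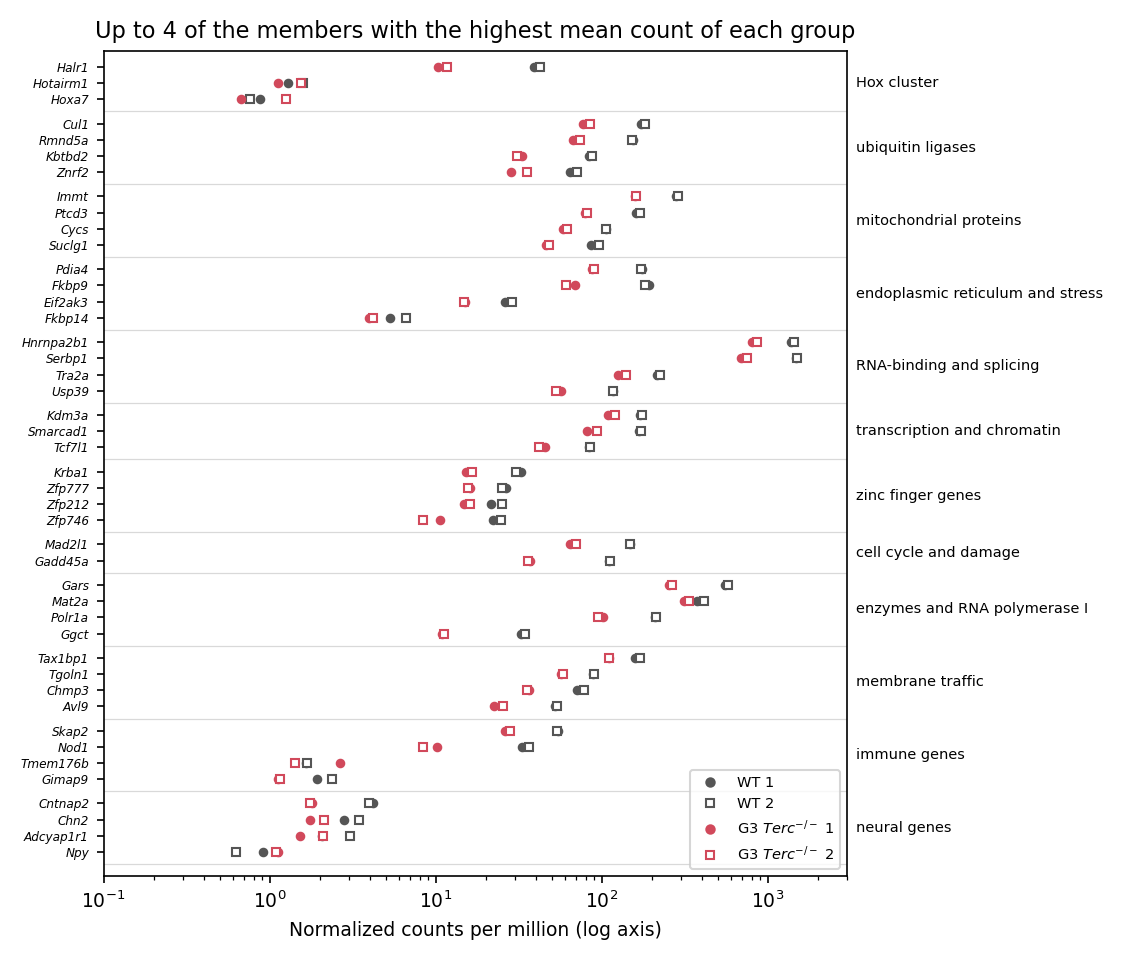
Normalized CPM (horizontal log axis) of up to 4 of the members with the highest mean count in each of 12 groups of members, with 1 point per library, WT in grey, G3 *Terc*-/- in red, circles for replicate 1 and squares for replicate 2. The red points lie left of the grey ones in most rows, and the exceptions are in the Hox, immune and neural groups.

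The 13 members listed as zinc finger genes lie from 47815536 to 48621548, with *Atp6v0e2*, *Lrrc61* and *Rarres2* among them. Of these, 11 were called lower and 0 higher, and the median log2 fold change was -0.88. *Krba1*, whose product has a KRAB domain, had 32.5 and 30.4 CPM in WT and 15.2 and 16.6 CPM in G3 *Terc*-/- ESCs (log2 fold change -0.99, SE 0.090). *Zfp777* had 26.6 and 24.9 against 16.1 and 15.6 CPM (-0.70), and *Zfp212* had 21.5 and 25.1 against 14.8 and 16.0 CPM (-0.60). *Zfp746*, which codes for the repressor PARIS, had 22.1 and 24.7 against 10.6 and 8.33 CPM (-1.30), the lowest of the list. In these 4 genes all G3 *Terc*-/- libraries lay below all WT libraries. The 2 that were not called, *Zfp786* and *Zfp783*, had at most 57 counts in any library. Summed over the list, levels were 162 and 160.1 CPM in WT and 86.2 and 86.7 CPM in G3 *Terc*-/- ESCs.

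Both members listed for the cell cycle and DNA damage were called lower. *Mad2l1*, a core protein of the spindle checkpoint, had 147 and 147 CPM in WT and 64.7 and 70.1 CPM in G3 *Terc*-/- ESCs (log2 fold change -1.13, SE 0.059). *Gadd45a*, a gene induced by DNA damage, had 110.1 and 112 against 37.0 and 35.8 CPM (-1.61, SE 0.066), with the noncoding gene *E230016M11Rik* overlapping it at -1.61. Neither gene overlapped between genotypes. Of the paralogues of *Gadd45a*, *Gadd45g* had 23.8 and 21.3 against 9.24 and 9.70 CPM (-1.25, edgeR adjusted p = 6.4e-13), and *Gadd45b* had 20.1 and 17.3 against 15.7 and 19.7 CPM (-0.09, edgeR adjusted p = 0.541). Of 18 spindle checkpoint partners of *Mad2l1*, 3 were lower (0 to 3) and 9 higher (5 to 10) by edgeR. *Pttg1*, the securin gene, had 37.6 and 34.6 against 78.5 and 79.2 CPM (1.13, edgeR adjusted p = 1.57e-17). *Mad1l1*, the direct binding partner of *Mad2l1*, had 46.9 and 48.4 against 62.1 and 57.7 CPM (0.33, edgeR adjusted p = 0.000109), and *Fzr1*, an activator of the anaphase-promoting complex, 111 and 99.8 against 132 and 127 CPM (0.30, edgeR adjusted p = 4.04e-05).

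Among the 10 members listed as enzyme and RNA polymerase I genes 9 were called lower and *Retsat* was called higher. *Gars*, the glycyl-tRNA synthetase, had 555 and 579 CPM in WT and 255 and 266 CPM in G3 *Terc*-/- ESCs (log2 fold change -1.12, SE 0.049). *Polr1a*, the largest subunit of RNA polymerase I, had 210 and 213 against 101 and 94.5 CPM (-1.11), and *Ggct*, an enzyme of glutathione breakdown, 32.4 and 34.3 against 10.96 and 11.29 CPM (-1.59). These genes had G3 *Terc*-/- libraries far below WT. *Mat2a*, which makes S-adenosylmethionine, had 377 and 411 against 311 and 334 CPM (-0.29, SE 0.051), a much smaller gap that still left the genotypes apart. Of 22 genes of other tRNA synthetases and their scaffold proteins, on other chromosomes, 7 were lower (3 to 8) and 0 higher by edgeR, with a median of -0.08, and 0 were higher at an unadjusted p under 0.05 or with DESeq2. *Sars* had 277 and 275 against 226 and 220.0 CPM (-0.31, edgeR adjusted p = 2.2e-06), *Lars* had a log2 fold change of -0.25 (edgeR adjusted p = 5.14e-05) and *Rars* of -0.21 (edgeR adjusted p = 0.000837), the last not called without WT replicate 2 (edgeR adjusted p = 0.0633). These genes charge serine, leucine and arginine tRNAs.

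Of 13 RNA polymerase I partners of *Polr1a* 3 were lower (0 to 3) and 1 higher (1 to 3) by edgeR. *Znrd1*, a small subunit of the enzyme, had 35.7 and 35.3 against 49.0 and 46.0 CPM (0.42, edgeR adjusted p = 6.66e-06). *Polr1b*, the next largest subunit, had a log2 fold change of -0.21 (edgeR adjusted p = 0.00198, and 0.0827 without WT replicate 2), and *Polr1d* of -0.17 (edgeR adjusted p = 0.0123, and 0.116 and 0.104 without WT replicate 1 or 2). The 12 genes tested around the methionine cycle of *Mat2a* held 5 lower (3 to 5) and 2 higher (1 to 3) genes by edgeR, and 3 and 1 by DESeq2. *Cbs*, which draws homocysteine out of the cycle, had 29.4 and 29.8 against 49.2 and 44.5 CPM (0.67, edgeR adjusted p = 9.56e-10). *Mettl16*, which methylates *Mat2a* RNA, had 116 and 119.8 against 89.0 and 91.7 CPM (-0.39, edgeR adjusted p = 3.82e-07), and *Sms*, the spermine synthase gene, 139.5 and 144.7 against 107 and 115 CPM (-0.36, edgeR adjusted p = 1.07e-06).

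All 11 members listed as membrane traffic genes were called lower, between -1.20 and -0.57 on the log2 scale. *Tax1bp1*, an autophagy receptor, had 159 and 171 CPM in WT and 111 and 111 CPM in G3 *Terc*-/- ESCs (log2 fold change -0.57, SE 0.055). *Tgoln1*, a protein of the trans-Golgi network, had 88.4 and 89.9 against 56.6 and 58.8 CPM (-0.63). *Chmp3*, a subunit of the ESCRT-III complex that cuts membranes, had 70.8 and 78.4 against 36.6 and 35.5 CPM (-1.05), and *Avl9*, a protein of the late secretory pathway, 52.6 and 53.6 against 22.6 and 25.3 CPM (-1.15). The last pair stood lower relative to WT than the first, and in no gene of the 4 did the genotypes overlap. The lowest of the group was *Snx10*, a sorting nexin of endosomes, with 44.5 and 48.2 against 19.4 and 21.2 CPM (-1.20). A paralogue of *Tax1bp1* on chromosome 11, *Calcoco2*, also an autophagy receptor, had 35.03 and 41.27 against 105 and 114 CPM (1.52, edgeR adjusted p = 1.6e-21). Over all 35 paralogues tested on other chromosomes 13 were lower (7 to 14) and 3 higher (1 to 4) by edgeR, with a median of -0.11.

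Of the 6 members listed for the Hox cluster 1 was called lower, 0 higher and 5 were not called. The list leaves out *Mira*, given above, which lies within the cluster. Of the 17 cluster genes listed, 11 had fewer than 10 counts on average. *Halr1*, a long noncoding RNA gene of the cluster, had 39.3 and 42.5 CPM in WT and 10.3 and 11.6 CPM in G3 *Terc*-/- ESCs (log2 fold change -1.91, SE 0.093), and had the most counts of the cluster in every library. *Hotairm1*, a noncoding RNA of the cluster, had 28 and 35 counts in WT against 25 and 28 in G3 *Terc*-/- ESCs, and *Hoxa7* 19 and 17 against 15 and 23 counts. For both genes the genotypes overlapped, and a difference was not detectable at this depth. Of the 28 genes found of the other Hox clusters 10 had enough counts for a test, with 3 higher (0 to 4, the 0 with a filter at a mean of 50 counts) and 0 lower by edgeR, and 0 lower at an unadjusted p under 0.05 or with DESeq2. *Hoxc13* had 22 and 19 against 70 and 56 counts (1.74, edgeR adjusted p = 3.53e-06), and *Hoxd13* 15 and 23 against 62 and 36 counts (1.48, edgeR adjusted p = 0.000221), both posterior genes. *Hoxd8* had 13 and 6 against 25 and 19 counts (1.32, edgeR adjusted p = 0.0151), a call lost without WT replicate 2 (edgeR adjusted p = 0.246) or G3 *Terc*-/- replicate 1 (edgeR adjusted p = 0.102) and in DESeq2 (adjusted p = 0.153).

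Immune genes were mostly below the count minimum, with 8 members among the 19 listed genes of the interval. *Skap2*, an adaptor of Src-family kinases, had 54.5 and 54.0 CPM in WT and 26.0 and 27.8 CPM in G3 *Terc*-/- ESCs (log2 fold change -1.01, SE 0.075). *Nod1*, a receptor for bacterial peptidoglycan, had 32.9 and 36.6 against 10.2 and 8.44 CPM (-1.89, SE 0.101). Both were lower in each G3 *Terc*-/- library. *Gimap9*, a GTPase of lymphocytes, had 42 and 53 against 25 and 21 counts (-0.92), and *Tmem176b* had 36 and 37 against 59 and 26 counts, with the knockout libraries on either side of WT. In all, 4 immune members were called lower, 0 higher and 4 were not called.

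Of the 12 neural genes listed in the interval 4 were members, and 2 of these were called lower. *Cntnap2*, a neurexin-like adhesion protein and the member nearest the 45 Mb border, had 92 and 88 counts in WT against 40 and 32 in G3 *Terc*-/- ESCs (log2 fold change -1.20, SE 0.233). *Chn2*, a GTPase-activating protein for Rac, had 61 and 77 against 39 and 39 counts (-0.69). *Adcyap1r1*, the receptor of the neuropeptide PACAP, had 45 and 68 against 34 and 38 counts (2.06 and 3.07 against 1.53 and 2.08 CPM), so that 1 knockout library reached the lower WT library. *Npy*, neuropeptide Y, had 20 and 14 against 25 and 20 counts, where both knockout libraries were the higher ones on the CPM scale at very low depth.

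Apart from these groups, 37 members belonged to none of them, of which 28 were called lower, 0 higher and 9 were not called, with a median log2 fold change of -0.80.

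Among members with a mean of at least 50 counts, the lowest included *Foxi3*, *Halr1*, *Nod1* and *Gadd45a*. *Foxi3*, a forkhead factor of the early ectoderm, had 14.1 and 12.9 CPM in WT and 2.62 and 3.51 CPM in G3 *Terc*-/- ESCs (log2 fold change -2.16, SE 0.160). It stood at 22.7% of WT, the lowest of the 92 genes, and its libraries did not overlap between genotypes.

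At the upper end of the same 92 genes were, among others, *Retsat*, *Vopp1*, *Capg* and *Particl*. *Retsat*, the retinol saturase gene, had 10.3 and 9.65 CPM in WT and 13.0 and 12.4 CPM in G3 *Terc*-/- ESCs (log2 fold change 0.35, SE 0.121). Both G3 *Terc*-/- libraries of *Retsat* were high and stood at 127% of WT, but it was not called higher with DESeq2, without WT replicate 2 or without G3 *Terc*-/- replicate 1. *Vopp1* had 5.77 and 5.32 against 5.68 and 5.32 CPM (-0.01, SE 0.168), so that its genotypes overlapped. *Capg*, an actin-capping protein, had 19.5 and 17.8 against 16.0 and 16.6 CPM (-0.19, SE 0.100). *Particl*, a noncoding RNA antisense to *Mat2a*, had 39.6 and 42.8 against 34.99 and 34.31 CPM (-0.25, SE 0.075), close to the value of *Mat2a* itself. In *Capg* and *Particl* both G3 *Terc*-/- libraries were below WT by a small margin. *Mat2a*, *Particl*, *Capg*, *Elmod3* and *Retsat* follow each other along the chromosome, and among them *Elmod3*, a GTPase-activating protein of the ELMO family, stood lowest, at -0.70.

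Some members share sequence with a neighbour. In 17 pairs, which take in 33 members, the annotated spans overlap, and since the strand setting of the counting is not given in the sources used here, the reads of such pairs may not have been kept apart. Pairs with near-equal fold changes included *Gadd45a* and *E230016M11Rik*, and *Mat2a* and *Particl*. Others differed, as *Herc3* at -1.35 and *Nap1l5*, which lies within it, at 0.26, or *Zfp956* at -1.26 and *Zfp783* at -0.61.

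The 2 microRNA genes overlap longer genes, *Mir704* with *Pdia4* and *Mir8112* with *Krcc1*, and libraries of poly(A) RNA do not measure mature microRNAs. *Mir704* had 333 and 357 counts in WT against 194 and 146 in G3 *Terc*-/- ESCs, and *Mir8112* had 25 and 22 against 4 and 9 counts. Both were low in the G3 *Terc*-/- libraries, as the genes they overlap were (-0.96 and -1.10 on the log2 scale). Their mature sequences from RefSeq (GRCm38.p6), at chr6:47803590-47803610 on the minus strand and chr6:71271745-71271764 on the plus strand, are shown with the seed (bases 2 to 8) in capitals to show that they share no seed.
mmu-miR-704: aGACAUGUgcucugcuccuag
mmu-miR-8112: uCUCCGCCaccuccaccgca

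As most members were lower together, the 250 bases before the gene start were read for the 106 members (86.9%) that have an entry in the RefSeq promoter table (GRCm38.p6). Each was searched on both strands for the CCAAT box, for the GC box (written GGGCGG) and for the TATA box (written TATAAA), and CG dinucleotides were counted. The first was held by 36.8% of members, 36.7% of the 11585 promoters of genes tested and 34.5% of all 27025 promoters. GGGCGG was held by 60.4% of members, 59.1% of tested genes and 33.0% of all promoters, and TATAAA by 9.43%, 6.49% and 13.0%. The median number of CG was 13 in members, 15 in tested genes and 6 in all promoters. Among members with a mean of at least 50 counts, those under 40% of WT (11 with an entry) had a median of 12 CG. Those of them at 80% of WT or more (6 with an entry) had a median of 17.5. A match describes the letters only.

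The sequences below are the 2 lowest and 2 highest members in log2 fold change whose upstream 250 bases belong to no other annotated gene and that have 1 annotated start, among those with at least 50 counts, a choice made after the values were seen. They are printed from the 5′ end on the gene's strand, with matches to the motifs above in capitals. *Foxi3* (log2 fold change -2.16) lies at chr6:70956356-70956605 on the plus strand, has 24 CG and 2 matches to GGGCGG. *Halr1* (-1.91) lies at chr6:52102699-52102948 on the plus strand, has 6 CG and no match. *Pyurf* (-0.43), at chr6:57692079-57692328 on the minus strand, has 17 CG, 3 matches to GGGCGG and 1 to CCAAT. *Tmem150a* (-0.32), at chr6:72355233-72355482 on the plus strand, has 27 CG and 4 matches to GGGCGG. Of these printed pairs, the low one thus holds a promoter rich in CG and one poor in it, and the high one holds only promoters rich in CG. The wider classes above did not differ in this way. Members under 40% of WT had 4 to 36 CG, and those at 80% of WT or more had 4 to 29.
Foxi3: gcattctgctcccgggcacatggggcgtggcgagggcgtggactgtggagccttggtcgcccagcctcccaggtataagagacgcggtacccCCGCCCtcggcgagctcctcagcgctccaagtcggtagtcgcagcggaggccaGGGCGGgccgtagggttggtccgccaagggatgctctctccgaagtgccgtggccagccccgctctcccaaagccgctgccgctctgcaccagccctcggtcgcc
Halr1: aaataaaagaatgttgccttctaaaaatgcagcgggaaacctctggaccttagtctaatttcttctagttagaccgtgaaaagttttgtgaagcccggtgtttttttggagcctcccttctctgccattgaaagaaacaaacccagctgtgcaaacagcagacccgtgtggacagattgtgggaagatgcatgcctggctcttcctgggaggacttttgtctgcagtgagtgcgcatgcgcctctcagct
Pyurf: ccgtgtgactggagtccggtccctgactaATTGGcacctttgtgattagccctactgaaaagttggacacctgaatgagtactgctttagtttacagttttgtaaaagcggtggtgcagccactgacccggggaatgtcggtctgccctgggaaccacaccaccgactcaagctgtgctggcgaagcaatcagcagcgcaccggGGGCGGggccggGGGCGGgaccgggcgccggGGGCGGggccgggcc
Tmem150a: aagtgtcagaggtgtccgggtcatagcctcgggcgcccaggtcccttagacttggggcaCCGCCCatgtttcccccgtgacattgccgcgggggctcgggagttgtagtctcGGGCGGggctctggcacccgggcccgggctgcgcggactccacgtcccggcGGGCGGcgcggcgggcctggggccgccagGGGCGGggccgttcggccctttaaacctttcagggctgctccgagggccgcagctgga

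The identity of the cells was checked with markers. All 12 ESC markers were present in every library, with 9 higher and 3 lower by edgeR. They summed to 6835 and 6953 CPM in WT and 8097 and 8446 CPM in G3 *Terc*-/- ESCs, led by *Tdgf1*, a coreceptor for Nodal. Among them *Nanog*, on chromosome 6 outside the interval, had 410.5 and 407.7 against 888.9 and 900.3 CPM. The 16 markers of feeder fibroblasts were present too and summed to 1601 and 1312 CPM in WT and 2191 and 1847 CPM in G3 *Terc*-/- ESCs, of which 15 were tested, with 8 higher and 1 lower by edgeR. Both knockout sums were the higher ones. Their most abundant gene was *Fn1*, the fibronectin gene, which ESCs express as well, and without it the sums were 464 and 304 against 495 and 341 CPM. Without *Fn1*, replicate 1 was thus above replicate 2 in both genotypes and the genotypes overlapped. At each replicate number the knockout sum was still the higher one, and *Fn1* was only 1 of the 8 markers called higher. *Col1a2* of the feeder list also lies on chromosome 6 outside the interval. The part of feeder RNA in the values of the members was not tested.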

How the data were processed

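RNA-seq was made from 2 libraries each of WT and G3 *Terc*-/- ESCs, grouped by their labels. Reads were aligned by the authors with STAR (assembly mm10), and the deposited gene table holds raw counts, not normalized. The submitters' processing notes also name Trim Galore and featureCounts, and versions and the strand setting are not given in the sources used here. Of the 24116 gene identifiers, 24061 were matched to RefSeq (GRCm38.p6) for symbols and positions, and exon lengths came from GENCODE annotation of the same assembly.

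Fold changes came from the quasi-likelihood test of edgeR 4.0.16 (R 4.3.3) with TMM factors, filterByExpr and no term but genotype, and p was adjusted by Benjamini-Hochberg over the 14896 genes tested. The fit was tested on simulated counts. The 4 libraries held 18047995 to 22520017 counts each. p-values measure the spread between 2 libraries of 1 line per genotype, and an exact permutation test of a single value with 2 libraries against 2 could not go below 0.333. Limits for counts of 0 cover counting error only. Counts of retrotransposon copies were not used here, because those copies have no positions in the counts.

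The members, groups and partner lists were chosen with earlier results of these data known. Partner genes on chromosome 6 (6 genes) were left out. The genes named are *Terc*, the 4 of each member group with the highest mean count, the 5 lowest and 5 highest log2 fold changes among members with a mean of at least 50 counts, the 3 genes nearest each border and each side of the count minimum, the 5 members with the highest RPKM in WT, up to 3 genes of each partner list with the smallest p, and paralogues of the lowest and highest members. Some genes that this rule picks are not reported here. Other genes were named after their values were seen.

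Tried beside these were DESeq2 1.42.0, edgeR with the size factors of DESeq2, TMM factors without chromosome 6, no filter, a filter at a mean of 50 counts, the replicate number as a block, leaving out each library, borders of 50 and 75 Mb, and a member minimum of 50 counts. Figures were drawn with matplotlib 3.10.9.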

Additional observations from a re-analysis of the deposited data

How the results depend on the processing

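Under the alternatives that kept all 122 members, 84 to 99 were called lower, and the 98 called by edgeR were all called with DESeq2's size factors, with TMM factors without chromosome 6 and without a filter. With DESeq2 84 of these 98 were, 0 members were called higher, and 2290 genes in all were lower and 2076 higher, against 3241 and 3238 with edgeR. With a filter at a mean of 50 counts the median log2 fold change of the 92 members left was -0.93, and with a member minimum of 50 counts it was -0.95, against -0.89. Borders of 50 and 75 Mb left 91 members with a median of -0.89, of which 73 were called lower. Leaving out each library in turn, with the lone library assumed to vary like the other genotype, gave 90 to 94 members lower, 0 to 1 higher, medians of -0.90 to -0.87 and 29 to 37 partner genes higher. Partner genes called lower numbered 31 to 53, the lowest without WT replicate 2. The cause was not tested, beyond the fewer libraries in these fits.

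The libraries share replicate numbers but are not shown to be pairs. Deviations of the same number correlated at 0.165 over 12177 genes. With the replicate number as a block, 99 members were lower and 1 higher (median -0.89, 49 lower by a fold change of 2), as were 3583 and 3551 of all genes and 57 and 42 partner genes.

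Of 934 values of 95 named genes under the alternatives, 551 were those of members, of which 46 moved beyond their error and 14 others lost the call. Of the 383 values of other genes 16 lost an adjusted p under 0.05. In 10 values of 7 genes the sign changed, all of them genes that were not called (among them *Hotairm1*, *Hoxa7*, *Tmem176b*, *Vopp1*, *Mira* and *Reg2*). *Reg2*, just under the count minimum, ran from -1.84 to 0.13 with each library left out. Genes under 50 counts limit what can be read here, since 18 of the 30 such members were not called.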
